A study of Mus musculus with 11 samples.

Results

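Guanylate cyclases make cyclic GMP (cGMP), and their genes were followed in the retinas of Nrl knock-out and wild-type mice at postnatal day 21. 7 genes were taken by symbol from the 23284 genes of the deposited table: the membrane cyclases Gucy2e and Gucy2f, the activating proteins Guca1a and Guca1b, the cyclase-binding protein Rd3, and the soluble cyclase subunits Gucy1a3 and Gucy1b3. All 7 were in the table, and all 7 were among the 14584 genes that passed the filter on low values.

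The mRNA of whole retina was sequenced in 6 Nrl knock-out (Nrl-/-) libraries and 5 wild-type libraries. Nrl encodes a transcription factor that rod photoreceptors need, and retinas lacking it are known to form cone-like photoreceptors in place of rods. The labels give the genotype, tissue and age of each group but neither the strain nor how the knock-out allele was built. Nothing in them ties a library to its own animal, and the p-values therefore measure only the spread among these libraries, which may be technical.

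In photoreceptors, cGMP holds the cation channels of the outer segment open in darkness, and light lowers it by activating a phosphodiesterase. The fall in calcium that follows frees the guanylate cyclase activating proteins to stimulate the membrane cyclases, which restores cGMP and lets the cell recover and adapt. RD3 carries the cyclases toward the outer segment and inhibits them on the way, while the soluble cyclase, a dimer of an alpha and a beta subunit, is a separate enzyme that nitric oxide switches on through a haem group.

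Knock-out libraries held 14907613 to 19877314 reads in genes, and wild-type libraries 16126210 to 20685840. Values are normalized counts, reads divided by 1 size factor per library. Nrl itself averaged 51.7 ± 5.1 normalized counts in knock-out and 37017 ± 1947 in wild-type libraries (SD, n = 6 and 5), a log2 fold change of -9.46. The first principal component took 76.7% of the variance and separated the genotypes. On the second, with 7.34%, wild-type replicate 1 and knock-out replicate 2 stood farthest from zero. In limma, 6752 of 14584 genes, 46.3%, passed an adjusted p of 0.05, with 3448 (23.6%) higher and 3304 (22.7%) lower in knock-out retina.

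Of the 7 genes, 6 passed that threshold, 4 of them lower and 2 higher in knock-out retina, against the 46.3% of all tested genes. The rod-linked cyclase Gucy2f and the activator Guca1b fell steeply, Gucy2e fell to 50.0% of its wild-type level, and Guca1a and Rd3 rose modestly. Gucy1a3 was slightly lower, a call that ended when libraries were scaled to their totals, and Gucy1b3 did not pass the test. 3 of the 7 fell at least 2-fold, as did 2.6% of tested genes, none rose that much, as did 5.17%, and 4 had groups that did not overlap, against 30.9% of tested genes. Gucy2e lay at the 2-fold limit, and in 10 of 25 alternative settings it fell by less, leaving 2 genes past it. The median log2 fold change was -0.13 over the 7 genes and -0.01 over all tested genes. Scaling each library to its total in place of size factors shifted the median of all tested genes to 0.13. It gave 5861 genes higher and 1711 lower. The scaling thus decides the call or the direction of small changes, Gucy1a3 and Gucy1b3 among the 7. Calls of some changes larger than that shift were lost too, such as Gucy1a2, at -0.25 with size factors and -0.12 with library totals.

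**Figure D1:**
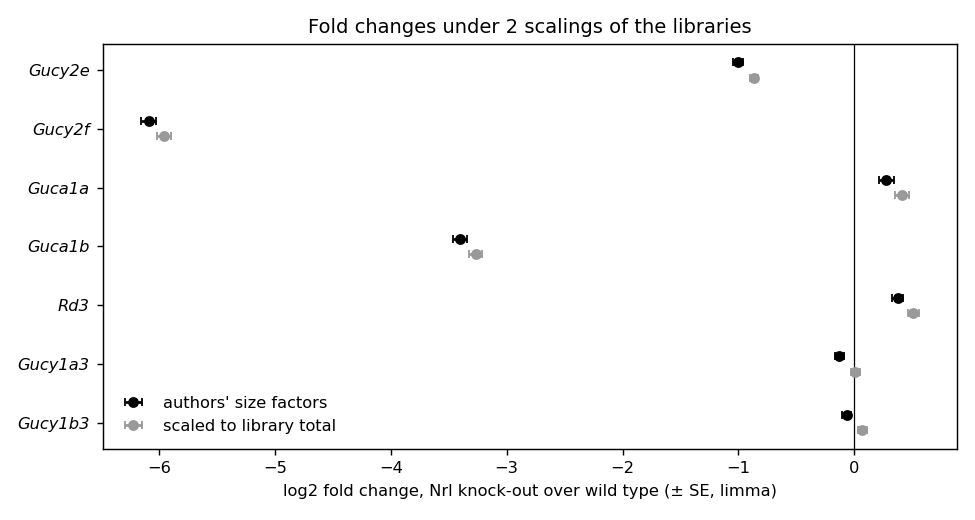
Log2 fold changes of the 7 genes, Nrl knock-out over wild type, on the log2(normalized count + 1) scale. Points are limma estimates and bars their standard errors (SE), with the authors' size factors and with scaling to library totals. With size factors, Gucy2f (-6.09) and Guca1b (-3.40) lie far to the low side, Gucy2e at -1.0, and the other 4 between -0.13 and 0.37.

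Gucy2e encodes retinal guanylate cyclase GC-E, known as the main cyclase of cone outer segments and present in rods too. Gucy2f encodes the related cyclase GC-F, known in mouse mainly from rods. RefSeq gives promoter sequences (GRCm38.p6) for 6 of the 7 genes, all but Guca1b. The 250 bases before the start site are shown for the membrane cyclases and Guca1a, in which the core letters of sites for CRX, a homeobox factor of photoreceptors, were found. Capitals mark the letters TAATCC or, where they lie on the other strand, their reverse complement GGATTA. Each sequence is given 5′ to 3′ on the gene's strand, which is the minus strand for all 3: Gucy2e at chr11:69237023-69237272, Gucy2f at chrX:142196937-142197186 and Guca1a at chr17:47400607-47400856.
Gucy2e: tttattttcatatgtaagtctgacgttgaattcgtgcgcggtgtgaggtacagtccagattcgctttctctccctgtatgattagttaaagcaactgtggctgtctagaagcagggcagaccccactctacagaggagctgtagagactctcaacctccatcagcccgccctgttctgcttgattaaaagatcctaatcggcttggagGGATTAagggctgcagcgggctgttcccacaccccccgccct
Gucy2f: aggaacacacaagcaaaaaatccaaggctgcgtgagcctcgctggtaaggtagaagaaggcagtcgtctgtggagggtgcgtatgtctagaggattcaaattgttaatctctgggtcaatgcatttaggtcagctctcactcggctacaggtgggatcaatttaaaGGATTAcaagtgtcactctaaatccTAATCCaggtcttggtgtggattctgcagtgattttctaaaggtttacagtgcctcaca
Guca1a: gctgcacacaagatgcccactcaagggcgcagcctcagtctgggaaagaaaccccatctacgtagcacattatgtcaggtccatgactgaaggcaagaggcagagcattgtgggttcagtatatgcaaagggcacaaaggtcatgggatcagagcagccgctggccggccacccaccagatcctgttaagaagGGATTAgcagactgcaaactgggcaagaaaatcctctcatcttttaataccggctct

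The Gucy2e window held 1 match, 42 bases before the start site, and the Guca1a window 1, 57 bases before it. Gucy2f held 2, at 84 and 59 bases before the start. The windows of Rd3, Gucy1a3 and Gucy1b3 held none. Of 32851 mouse promoters of the same length, 6.25% held these letters on either strand. The letters TGCTGA, a half-site associated with NRL, or on the other strand their reverse complement TCAGCA, stood in 16.1% of the promoters and in none of the windows of the 6 genes. A match describes letters only, and says nothing of whether a factor binds there.

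Gucy2e had 9131, 9761 and 10168 normalized counts as lowest, median and highest of the 6 knock-out libraries, against 19887, 20228, 18509, 18841 and 19850 in wild-type replicates 1 to 5. Every knock-out library lay below every wild-type library. The means were 9724 ± 446 in knock-out and 19463 ± 743 in wild-type retina (SD, n = 6 and 5). The log2 fold change was -1.0 (SE 0.04, limma adjusted p = 1.78e-13), and with scaling to library totals it was -0.87.

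Gucy2f was nearly lost. Knock-out libraries had 126, 139.9 and 169 normalized counts as lowest, median and highest, against 9739, 9950, 9590, 9261 and 10322 in the wild-type libraries. The highest knock-out library stood far under the lowest wild-type one, and 891 reads were counted over all 6 knock-out libraries, so the gene was still detected. Its mean was 143 ± 15.0 in knock-out and 9773 ± 396 in wild-type retina, 1.46% of the wild-type level, with a log2 fold change of -6.09 (SE 0.06, limma adjusted p = 2.23e-22). Only 14 of the tested genes had a lower fold change.

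Guca1a encodes GCAP1, a calcium-binding activator of the membrane cyclases found in rods and cones. It had 12100, 15091 and 16827 normalized counts as lowest, median and highest in knock-out retina, against 12510, 11905, 11362, 12690 and 12796 in wild-type. The groups overlapped, since knock-out replicate 5 fell within the wild-type range while the other 5 knock-out libraries stood above every wild-type one. The mean was 14896 ± 1595 in knock-out and 12253 ± 606 in wild-type retina, a log2 fold change of 0.28 (SE 0.07, limma adjusted p = 0.0024). Without knock-out replicate 5 it was 0.33, and with scaling to library totals 0.41.

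Guca1b encodes GCAP2, its relative, which in mouse is known mainly from rods. The 2 activator genes lie next to each other on chromosome 17 on opposite strands, Guca1a on the minus and Guca1b on the plus strand. Guca1b had 2241, 2631 and 2903 normalized counts as lowest, median and highest in knock-out retina, against 29359, 28552, 26478, 26161 and 26754 in wild-type. No knock-out library came near the wild-type range. The mean was 2600 ± 256 in knock-out and 27461 ± 1410 in wild-type retina, 9.47% of the wild-type level, with a log2 fold change of -3.40 (SE 0.06, limma adjusted p = 2.55e-18), and 48 tested genes had a lower one. These neighbours thus changed in opposite directions.

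Rd3 encodes the protein that the membrane cyclases need to leave the inner segment. It had 5439, 6216 and 6611 normalized counts as lowest, median and highest in knock-out retina, against 4876, 4655, 4583, 5039 and 4658 in wild-type. The lowest knock-out library, replicate 5, stood above the highest wild-type one. The mean was 6181 ± 417 in knock-out and 4762 ± 190 in wild-type retina, 1.30-fold higher, with a log2 fold change of 0.37 (SE 0.05, limma adjusted p = 2.96e-06). GENCODE places an antisense gene, Gm26670, over Rd3, which has no row of its own in the table, and whether the counting used strand is not known here.

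Gucy1a3 (current symbol Gucy1a1) encodes the alpha subunit of the soluble cyclase and Gucy1b3 (Gucy1b1) the beta subunit that binds haem, and these genes are neighbours on chromosome 3. Gucy1a3 had 4333, 4671 and 4956 normalized counts as lowest, median and highest in knock-out retina, against 5170, 5193, 5116, 4929 and 5068 in wild-type. 5 of the 6 knock-out libraries stood below every wild-type one, and replicate 5 did not. The log2 fold change was -0.13 (SE 0.04, limma adjusted p = 0.0130), but it was 0.0073 with an adjusted p of 0.892 when libraries were scaled to their totals.

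Gucy1b3 had 2834, 2948 and 3239 normalized counts as lowest, median and highest in knock-out retina, against 3274, 3188, 3072, 3065 and 3102 in wild-type. The groups overlapped in part: 4 knock-out libraries stood below every wild-type one, and the others fell within the wild-type range. The log2 fold change was -0.07 with a 95% interval of -0.16 to 0.02 (limma adjusted p = 0.219), and 0.07 with scaling to library totals, not past the threshold either way.

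**Figure D2:**
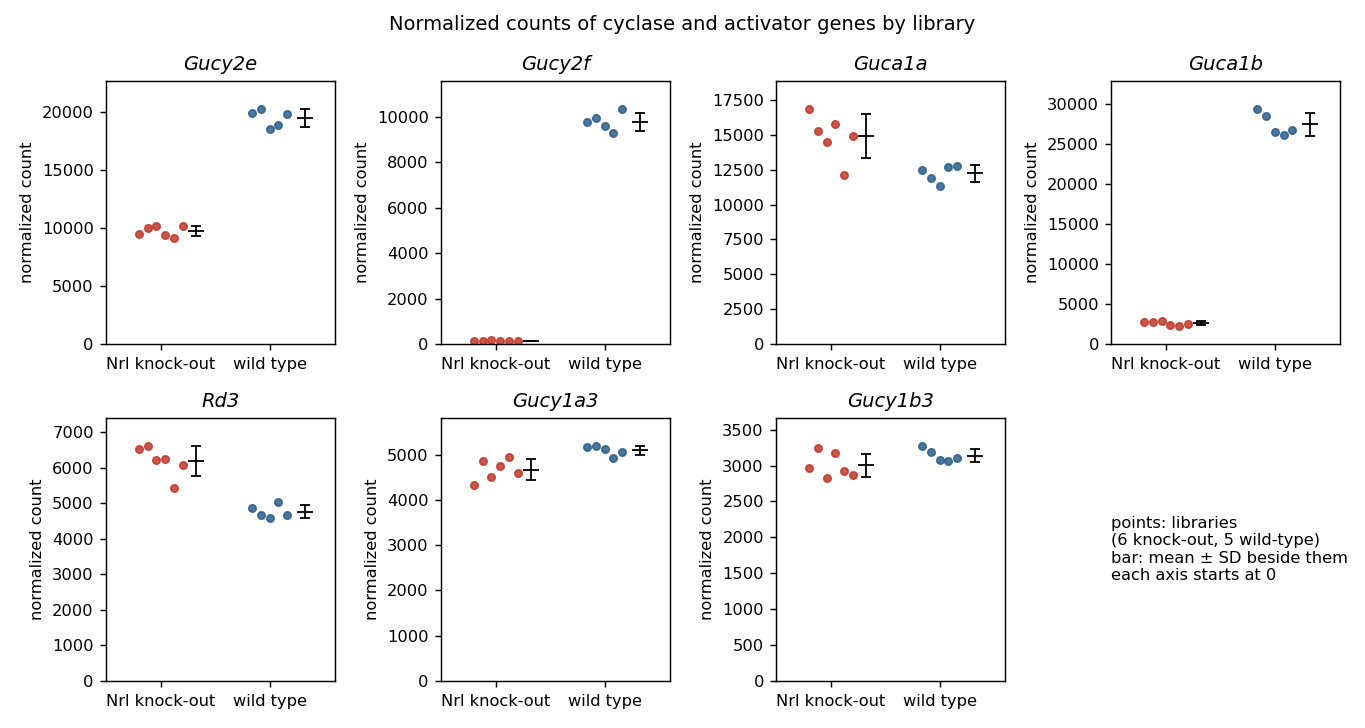
Normalized counts of the 7 genes in each library (points), with the mean ± SD beside them, Nrl knock-out (n = 6) left of wild type (n = 5). Gucy2f reaches at most 169 normalized counts in a knock-out library, Guca1b at most 2903, and Guca1a shows 1 knock-out library, at 12100, within the wild-type range.

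The authors' deposited table gives, for knock-out over wild type, log2 fold changes of -1.0 for Gucy2e, -6.06 for Gucy2f, 0.28 for Guca1a, -3.38 for Guca1b and 0.37 for Rd3. For the soluble subunits the authors' deposited table has -0.13 for Gucy1a3, with an adjusted p of 0.00574, and -0.07 for Gucy1b3, with an adjusted p of 0.264.

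Marker levels moved with these changes in the same libraries. Of all tested genes, 23.6% were called higher and 22.7% lower, the shares to set beside the counts of each marker list. All 7 genes of the rod list were lower, with a summed level of 11052 to 13812 normalized counts in knock-out and 1212299 to 1431622 in wild-type libraries. That list holds Nrl itself, the gene knocked out. Most of the list's knock-out sum came from Gngt1, at 9968 ± 1132 in knock-out and 21806 ± 1641 in wild-type retina (log2 -1.13). The other genes of the list fell further, by at least 5.13 on the log2 scale. All 8 genes of the cone list were higher, at 206425 to 255434 in knock-out and 23248 to 26599 in wild-type. Genes of both photoreceptor kinds had 2 higher and 3 lower of 5, or 2 and 2 with scaling to library totals. They summed to 250942 to 285137 in knock-out and 343766 to 409786 in wild-type libraries. In bulk retina, fewer cells of a type and less RNA per cell cannot be told apart, and the part of these markers in the results was not tested. Knock-out replicate 5 had the lowest cone sum, 206425, and was also the lowest of the 6 for Gucy2e, Guca1a, Guca1b and Rd3. That library also had the lowest knock-out sum for genes of both photoreceptor kinds (250942), microglia (2040) and pigment epithelium (446). It had the highest knock-out sum for bipolar (35514) and horizontal cell genes (4439). Whether any of these sums goes with the levels of the 4 genes was not tested.

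Lists for other cell types of the retina were measured too. The 6-gene bipolar list (3 higher, 1 lower) summed to 28340 to 35514 normalized counts in knock-out and 21604 to 28238 in wild-type libraries. All 5 amacrine genes were lower, summing to 15915 to 17536 in knock-out and 19491 to 22216 in wild-type libraries, and so were all 5 ganglion cell genes, at 12840 to 17232 in knock-out and 17291 to 21687 in wild-type, although 3 of 5 on each list were lower with scaling to library totals. Pericyte and smooth muscle genes, cells where the soluble cyclase is known to act, had 2 higher and 1 lower of 7 and summed to 1355 to 1724 in knock-out and 1088 to 1405 in wild-type libraries. The 5 microglia genes were all higher, at 2040 to 2935 in knock-out and 549 to 775 in wild-type. Of the horizontal cell list 1 of 4 was lower, and of the endothelium list 1 of 4 was lower. Of the Müller glia list 2 of 5 were higher and 1 lower, and of the pigment epithelium list 1 of 4 was higher. With scaling to library totals, 4 bipolar, 3 pericyte and smooth muscle, 3 Müller glia, 2 pigment epithelium and 1 horizontal cell gene were higher. In that setting 0 endothelium genes were lower, whereas edgeR and DESeq2 each called 2 lower. The 4 haemoglobin genes were listed at 0 in every library, and the 1 blood gene tested did not pass.

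Levels of different genes were compared per kb of coding length. In knock-out retina the order was Guca1a (24580 normalized counts per kb), Rd3 (10566), Guca1b (3769), Gucy2e (2925), Gucy1a3 (2249.9), Gucy1b3 (1614) and Gucy2f (43.0). In wild-type retina it was Guca1b (39798), Guca1a (20219), Rd3 (8140), Gucy2e (5855), Gucy2f (2940), Gucy1a3 (2458) and Gucy1b3 (1688). In both, every library of a gene stood above every library of the next one. Per coding length, Guca1b thus stood behind Guca1a and Rd3 in knock-out but ahead of both in wild-type retina, and Gucy2f was the lowest of the 7 in knock-out retina alone. With whole exonic length Guca1a led in wild-type retina too, at 14035 per kb with Guca1b at 11249.9, and Gucy1b3 stood above Gucy1a3 in both genotypes. Rd3, Guca1b and Gucy2e kept their ranks in knock-out retina by exonic length, but neighbours among them overlapped (1163, 1065 and 1057 per kb).

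Within the cyclase pair, Gucy2f held 1.45% ± 0.12 of the summed coding-length level in knock-out and 33.4% ± 0.7 in wild-type libraries (SD, n = 6 and 5). The pair's summed level was 2968 ± 137 per kb in knock-out and 8795 ± 319 in wild-type, 33.7% of the wild-type sum. Within the activator pair, Guca1b held 13.3% ± 1.1 in knock-out and 66.3% ± 1.6 in wild-type libraries. The activator sum was 28349 ± 2843 per kb in knock-out and 60018 ± 2283 in wild-type, 47.2% of the wild-type sum. The activator sum over the cyclase sum was 9.56 ± 0.96 in knock-out and 6.83 ± 0.20 in wild-type retina. The activator values depend on the length used. With exonic length, tried after the data were seen, Guca1b held 5.90% ± 0.55 of its pair in knock-out and 44.5% ± 1.7 in wild-type libraries, the activator sum in knock-out was 71.7% of the wild-type sum, and the activator sum over the cyclase sum was 16.9 ± 1.8 in knock-out and 7.62 ± 0.24 in wild-type retina.

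**Figure D3:**
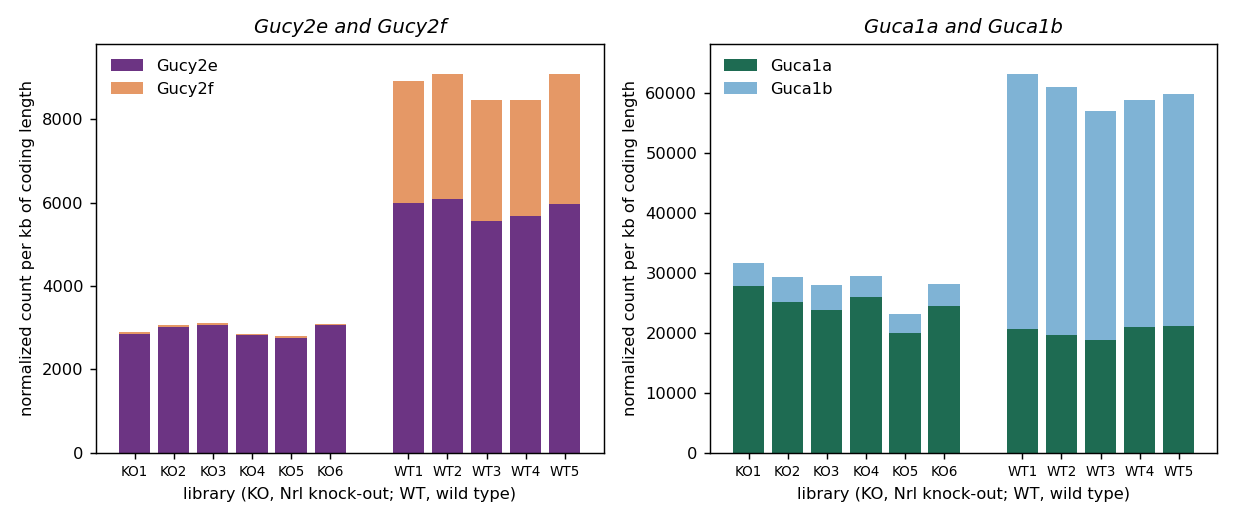
Normalized counts per kb of coding length of the membrane cyclases (left) and the activators (right), stacked in each library, Nrl knock-out libraries left of wild-type ones. Gucy2e makes up nearly all of the cyclase bar in knock-out, where Gucy2f holds 1.45%, and Guca1a most of the activator bar, where Guca1b holds 13.3%.

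Ratios between partners were compared within each library, as differences of log2(normalized count + 1), by an exact two-sided permutation test over genotype labels, in which the smallest possible p is 0.00216. Gucy2f relative to Gucy2e was -6.08 ± 0.12 in knock-out and -0.99 ± 0.04 in wild-type (SD, n = 6 and 5), a difference of -5.09. Guca1b relative to Guca1a was -2.52 ± 0.14 in knock-out and 1.16 ± 0.10 in wild-type, a difference of -3.68. Guca1a relative to Gucy2e was 0.61 ± 0.16 in knock-out and -0.67 ± 0.07 in wild-type, a difference of 1.28. The rod-linked pair, Guca1b relative to Gucy2f, stood at 4.18 ± 0.10 in knock-out and 1.49 ± 0.08 in wild-type, 2.69 higher, Gucy2f having fallen further than Guca1b. Rd3 relative to Gucy2e was -0.66 ± 0.09 in knock-out and -2.03 ± 0.08 in wild-type, a difference of 1.38. These 5 ratios gave the smallest p, 0.0026 after adjustment over 6 ratios (exact permutation tests), without overlap between genotypes. The soluble subunit ratio, Gucy1a3 relative to Gucy1b3, was 0.64 ± 0.08 in knock-out and 0.70 ± 0.03 in wild-type, a difference of -0.06 that overlapped between genotypes (exact permutation p = 0.128). Without knock-out replicate 5 that difference was -0.09, with an adjusted p of 0.0317 by the same exact test. This was the only 1 of the 11 single omissions that brought it past the threshold.

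**Figure D4:**
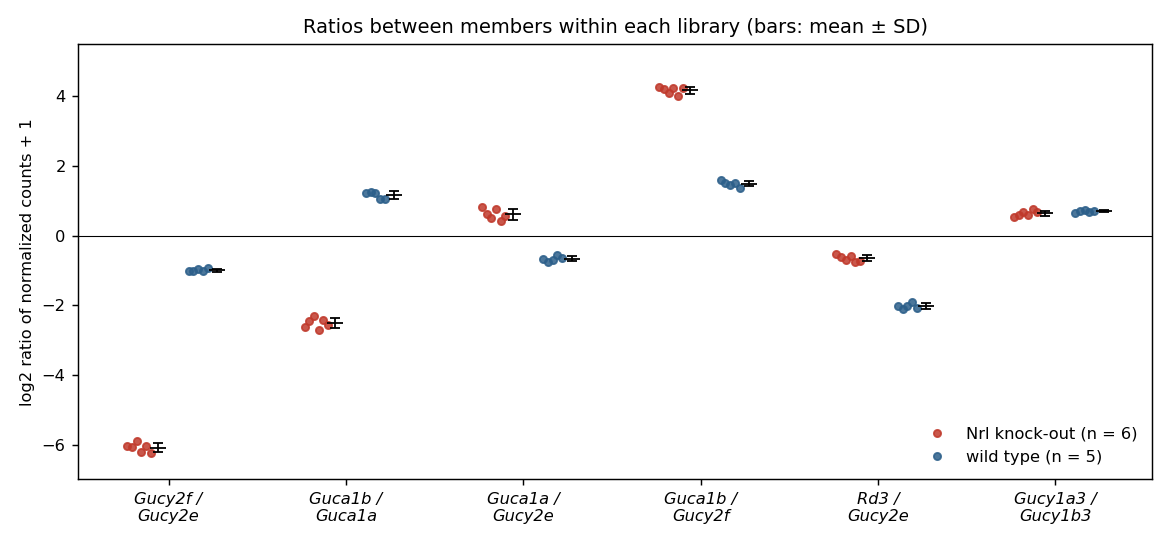
Log2 ratios of 6 gene pairs in each library (points; bars, mean ± SD), Nrl knock-out left of wild type. 5 pairs separate without overlap, the farthest being Gucy2f over Gucy2e (-6.08 in knock-out, -0.99 in wild type), and Gucy1a3 over Gucy1b3 overlaps (0.64 in knock-out, 0.70 in wild type).

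Other genes of cGMP signalling gave a comparison, taken from lists set by function. Pde6b, Cnga1, Pde6c, Pde6h, Cnga3, Rcvrn and Aipl1 are on the photoreceptor marker lists too, so their results are not separate from those above. The list counts stand beside 46.3% of all tested genes called, 23.6% higher and 22.7% lower. Of 5 other membrane cyclases 3 were tested, and 0 passed limma's threshold, with 0 at an unadjusted p under 0.05 and 0 by edgeR or DESeq2 (median 0.15). With scaling to library totals 1 was higher. Npr2, the receptor cyclase for C-type natriuretic peptide and the most abundant, averaged 1018 ± 106 normalized counts in knock-out and 995 ± 99.6 in wild-type retina. The olfactory cyclase Gucy2d had 5 reads over all knock-out libraries and 0 over the wild-type ones, which is at the floor of detection. Of other soluble subunits only Gucy1a2, an alternative alpha subunit, was tested, at 667 ± 73.6 in knock-out and 792 ± 51.8 in wild-type retina, a log2 fold change of -0.25 (limma adjusted p = 0.00697) that did not pass with scaling to library totals. Of 6 natriuretic and guanylin genes 2 were tested and 0 passed in limma, edgeR or DESeq2, and 0 had an unadjusted limma p under 0.05. Npr3, the natriuretic clearance receptor, averaged 148 ± 18.6 in knock-out and 173 ± 28.6 in wild-type retina, and it passed, at -0.30, only when wild-type replicate 5 was left out.

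Nitric oxide activates the soluble cyclase, and of 7 tested genes of its supply 2 were higher and 1 lower (median -0.02), or 3 and 1 with scaling to library totals. The neuronal synthase Nos1 averaged 107 ± 13.3 normalized counts in knock-out and 187 ± 28.0 in wild-type retina (log2 -0.79, limma adjusted p = 8.06e-06), whereas the endothelial synthase Nos3 averaged 363 ± 59.8 in knock-out and 236 ± 31.6 in wild-type (log2 0.62). Ddah1, which breaks down a synthase inhibitor, was higher by 0.21. Groups did not overlap for these 3 genes, nor for 30.9% of all tested genes. These 3 were named as the called genes of the list with the largest changes.

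The neuronal calcium sensor family, relatives of the activating proteins, had 8 of 11 lower and 1 higher, with a median of -0.23, but 3 lower and 1 higher with scaling to library totals. Recoverin (Rcvrn), a photoreceptor calcium sensor, averaged 5477 ± 490 in knock-out and 20317 ± 1444 in wild-type retina (log2 -1.89, limma adjusted p = 2.28e-14). Hpcal1 (-0.46) and the potassium channel partner Kcnip1 (-0.31) fell by less. The 1 higher gene, Hpcal4 (0.12), lost its call when any of 6 libraries was left out in turn, which leaves 0 higher.

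Of 9 tested genes that carry cyclases or lipid-tailed proteins, 3 were higher and 3 lower (median -0.13), or 4 and 2 with scaling to library totals. Unc119, which carries acylated proteins in photoreceptors, averaged 15538 ± 1102 in knock-out and 31221 ± 1710 in wild-type retina (log2 -1.01), close to the change of Gucy2e. Arl3, the small GTPase that releases such cargo, fell by 0.63 on the log2 scale, and the related Unc119b rose by 0.40. Of 7 genes listed for guanine metabolism and the supply of GTP, the substrate of the cyclases, 4 were higher and 1 lower (median 0.29). 1 of these higher genes, at 0.17, lost its call when any of 4 libraries was left out in turn. Guanylate kinase (Guk1) averaged 5211 ± 468 in knock-out and 3310 ± 269 in wild-type retina (log2 0.65), and Nme1, a nucleoside diphosphate kinase, rose by 0.52. Impdh1, which catalyses the rate-limiting step of guanine nucleotide synthesis and is abundant in photoreceptors, averaged 11560 ± 630 in knock-out and 16494 ± 981 in wild-type retina (log2 -0.51).

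Of 10 cGMP phosphodiesterases outside the photoreceptor PDE6 family, 2 were higher and 3 lower (median -0.11), or 3 and 0 with scaling to library totals. Pde3b averaged 347 ± 49.6 in knock-out and 141 ± 9.3 in wild-type retina (log2 1.28, limma adjusted p = 1.44e-09), and Pde3a had -0.24, a call lost with scaling to library totals. Pde9a, at -0.19, lost its call under 14 alternatives, among them edgeR, DESeq2, limma-voom, and any of 6 libraries left out in turn. Pde10a, at -0.33, did not pass in limma but did in edgeR and DESeq2. Pde1b, the most abundant, had -0.15 and did not pass with scaling to library totals. Pde1c (0.13), the other higher gene, also lost its call when any of 6 libraries was left out in turn. Without wild-type replicate 1 and knock-out replicate 2, 1 gene was higher and 2 lower. Of 4 cGMP-dependent kinases and their substrates 3 were higher and 0 lower (median 0.22): the substrate Mrvi1 (0.74), the kinase Prkg1 (0.23) and Vasp (0.20), whose call was lost when any of 4 libraries was left out in turn. All 9 photoreceptor PDE6 and cGMP-gated channel genes changed, 4 higher and 5 lower (median -2.10), with Cnga1 at -10.76, Cngb1 at -5.38 and Pde6b at -5.13. Pde6a, the most abundant of them, averaged 5314 ± 552 in knock-out and 73992 ± 5142 in wild-type retina.

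**Figure D5:**
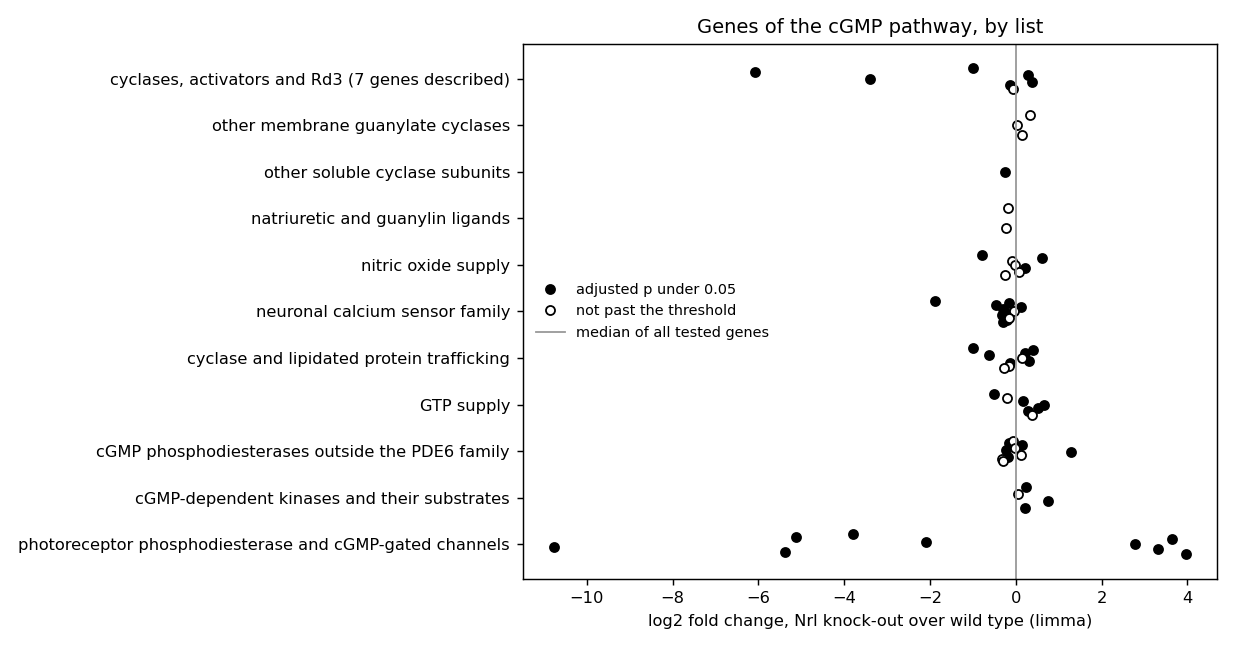
Log2 fold changes, Nrl knock-out over wild type, of genes in 11 groups of the cGMP pathway (filled points, limma adjusted p under 0.05; open points, not past it; line, median of all tested genes at -0.01). The PDE6 and channel genes spread from -10.76 to 3.96, and the 9 other lists beside the 7 genes described lie between -1.89 and 1.28.

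The tested genes whose profile over the 11 libraries lay nearest to each member were found by root-mean-square distance of log2 values centred on each gene's mean. Gucy2e was nearest to Ndrg3 (0.0451), Fam53b (0.0488) and Rps6ka2 (0.0567), and 239 tested genes lay within 0.2 of it. Gucy2f stood apart, with Reep6 (0.198), Wisp1 (0.273) and Aqp1 (0.277) nearest among named genes, and 2 genes lay within 0.2, Reep6 and the predicted gene Gm7616 (0.183). Guca1b had Pdia5 (0.157), Ebpl (0.165) and St3gal1 (0.184) nearest and 3 genes within 0.2. Guca1a had Med22 (0.0563), Mrps6 (0.0658) and Pop5 (0.0663) nearest among 4021 within 0.2, and Rd3 had Stam (0.0495), Rhoa (0.0524) and Phf23 (0.0531) among 3556. Gucy1a3 had Zmym4 (0.0305), Cnksr2 (0.0325) and Lhfpl4 (0.0339) nearest among 7845, and Gucy1b3 had Eps15 (0.0248), Lmbrd1 (0.0265) and Spnb2 (0.0266) among 8013, so many genes had a profile like those of these 4. Since all distances share the same 11 libraries and the genotype difference, they describe likeness of profile only.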

How the data were processed

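The authors deposited 1 table of 23284 genes whose 11 library columns hold a signal, read counts divided by 1 size factor per library, per the file headers and the values. Further deposited columns hold the authors' mean, log2 fold change and adjusted p-value, per the file headers. Build mm9 and the tools TopHat2 2.1.1, HTSeq 0.6.0 and DESeq (no version) are listed, with no role or order, per the submitters' processing notes, and the annotation and strand setting were not found there. Per the labels' protocols, reads were stranded, single-end and 50 bases long, and both polyA RNA and Ribozero depletion of ribosomal RNA are named, so the selection of mRNA is unsettled. Whole reads were recovered for 100% of values, to within 1e-06 of a read.

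Genes with at least 10 normalized counts in at least 5 libraries were tested with limma 3.58.1 (R 4.3.3; trend, robust, two-sided) on log2(normalized count + 1), genotype as the only term, Benjamini-Hochberg adjusted p under 0.05. This scale understates changes of low genes. edgeR 4.0.16, DESeq2 1.42.0 and limma-voom on recovered reads, a replicate block, left-out libraries, and other scalings, pseudocounts and filters were alternatives. Coding lengths came from GENCODE M21 coding sequence, where RefSeq protein lengths had been planned. Named genes are the 7 genes, Nrl, from each pathway list the 3 called genes with the largest change and the most abundant one, and the 3 nearest profiles of each of the 7. 2 listed trafficking symbols, Rd3l and Rp2, had no row under those names. The symbol Rp2h, on the same list, had a row and did not pass (log2 0.15, limma adjusted p = 0.0705). The genes and lists were chosen with earlier results of these data known.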

Additional observations from a re-analysis of the deposited data

How the results depend on the processing

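Over the reported fit and 25 alternatives the log2 fold change ran from -1.02 to -0.87 for Gucy2e, -6.14 to -5.96 for Gucy2f, 0.24 to 0.41 for Guca1a, -3.44 to -3.27 for Guca1b and 0.35 to 0.51 for Rd3, all past the threshold. Gucy1a3 ran from -0.15 to 0.0073, which it reached under scaling to library totals, and at a threshold of 0.01 its -0.13 did not pass. Gucy1b3 ran from -0.09 to 0.07 and passed under none of these. Scaling to library totals gave 5861 genes higher and 1711 lower, and Tulp1, a trafficking gene, changed sign to 0.0072. edgeR called 6789 genes and DESeq2 6783, and leaving out 1 library gave 6185 to 6741. The Gucy1a3 over Gucy1b3 difference ran from -0.087 to -0.045 when 1 library was left out. With exonic in place of coding length, Gucy1b3 ranked 5 and Gucy1a3 6 in knock-out retina, and the wild-type order became Guca1a 1, Guca1b 2, Gucy2e 3, Gucy2f 4, Rd3 5, Gucy1b3 6 and Gucy1a3 7. In an alternative chosen after seeing the data, exonic length gave Gucy2f 1.64% of the cyclase pair in knock-out and 36.2% in wild-type retina, Guca1b 5.90% of the activator pair in knock-out and 44.5% in wild-type, an activator sum of 71.7% of wild-type, and an activator over cyclase ratio of 16.9 in knock-out and 7.62 in wild-type. The cause of these shifts was not tested beyond the change of length or scaling itself.

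Same-numbered libraries of the 2 genotypes correlated between -0.13 and 0.22 in their deviations, and differently numbered ones between -0.36 and 0.41. Of 5 wild-type libraries, 0 correlated best with its own number. Pairing by number was thus not seen, but these correlations cannot exclude it, since a shared preparation need not make deviations alike. A replicate block gave 6791 calls and changed none of the 7 calls (Gucy1a3 -0.12, adjusted p = 0.0274 in limma). With that block the 5 ratios without overlap kept their direction, but each had an exact-test p of 0.0625, not past 0.05. The Gucy1a3 over Gucy1b3 ratio had an exact-test p of 0.125.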
